A study of Mus musculus with 12 samples.

Results

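Cytosolic ribosomal protein genes were followed in mouse bone marrow-derived dendritic cells that lacked or carried Arc/Arg3.1 and received LPS or medium. A gene was a member when 1 probe set carried a single symbol made of Rpl or Rps, a number and at most the letter a or x with a further number, with Rpl3 left out. This rule gave 53 of the 22180 genes with a single symbol, 22 of the small subunit and 31 of the large subunit, each read from its brightest probe set. The rule itself reads symbols only, but it was set with earlier results of these data known, and the probe set of a gene was picked by its mean signal. The cells came from the marrow of 8-week-old mice of C57BL/6 background, labelled male, and grew for 7 days with GM-CSF at 20 ng/ml. Arc/Arg3.1 -/- and wildtype cells were held for 30 min with medium or with LPS, the bacterial lipopolysaccharide sensed by TLR4, at 100 ng/ml, and after washing were kept for 1 h in plain medium. There were 3 arrays in each of the 4 groups (wildtype untreated, wildtype LPS, knockout untreated, knockout LPS). Per the labels the 3 arrays are biological replicates, with no word on whether different mice gave the cultures, and the p-values can therefore measure no more than the spread from culture to culture. How the knockout allele was made is not given in the texts used. The series asks what Arc/Arg3.1 does in migrating dendritic cells, and its design allows the effect of LPS, of genotype and of their interaction on the ribosomal protein genes to be read.

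The cytosolic ribosome consists of a small subunit, which binds the mRNA and decodes it, and a large subunit, which joins amino acids and releases the chain through an exit tunnel. Its proteins are made in near-equal amounts, and their mRNAs start with a run of pyrimidines (the terminal oligopyrimidine tract) through which mTOR and LARP1 control how much they are translated. Because control lies largely at translation, the level of these mRNAs is usually steady while protein output moves, and in dendritic cells LPS is known to raise translation early after the stimulus. RNA was measured in whole cultures, so fewer cells of a type and less RNA per cell cannot be told apart.

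Such a tract lies at the first base of the mRNA, so runs of pyrimidines were looked for around the annotated start of each gene. RefSeq promoter entries (GRCm38.p6, 250 bases before to 50 after each annotated start) were matched by symbol for 42 of the 53 members, with 49 starts in all. A run of at least 8 pyrimidines holding both C and T, on the gene's strand and within 50 bases either side of the start, was present at 40 of the 49 starts (81.6%), against 35.3% of all 32851 starts and 34.7% of the 75 starts of mitochondrial ribosomal protein genes. The windows below belong to members described in the results. Each is 30 bases on the gene's own strand, 5′ to 3′, with the pyrimidine run in capitals.
Rps7, chr12:28635911-28635940, minus strand: ctgtccccaCCTCTTTTCTTCCgccacccg
Rps19, chr7:24884612-24884641, plus strand: cgcccgggaaaccccgtcgTTCCCTTTCCC
Rps25, chr9:44407684-44407713, plus strand: ccaccgggCTTCCTTTTTTTCCgacatctt
Rps24, chr14:24490698-24490727, plus strand: ttggtcggcagtgagcggTCCTCTTTTCCT
Rps18, chr17:33955648-33955677, minus strand: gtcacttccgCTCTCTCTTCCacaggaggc
Rps27, chr3:90213632-90213661, minus strand: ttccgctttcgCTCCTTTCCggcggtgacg
Rpl41, chr10:128549119-128549148, minus strand: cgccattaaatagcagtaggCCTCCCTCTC
Rpl34, chr3:130730393-130730422, minus strand: ctgacgcgccgCCTTCCCTgacgtacttcc
Rpl11, chr4:136053358-136053387, minus strand: ccggaagTCTCCCTCTCTCTTCCTgttctc
Rps6, chr4:86857349-86857378, minus strand: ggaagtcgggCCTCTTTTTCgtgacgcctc
The runs of Rps18 and Rps27 began 2 bases before the annotated start, that of Rps6 began 1 base before it, that of Rpl34 began 13 bases before it and that of Rpl11 began 13 bases after it. The other runs lay farther off: the run of Rps25 began 22 bases before the annotated start, and those of Rps7, Rps24, Rps19 and Rpl41 began 22, 38, 39 and 40 bases after it. A run away from the annotated start is a match of letters and was not shown to be the first bases of the mRNA. Rps6, whose level was among the steadiest, and Rps18, whose level was among the most variable, both carried such a run next to the annotated start.

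Other motifs were searched on both strands of the same 300 bases. CCGGAAG, the core bound by ETS factors such as GABP, was found at 38.8% of members' starts, against 8.9% of all starts and 34.7% of mitochondrial ribosomal starts. AANATGGC, read by YY1, was found at 16.3%, against 6.1% of all starts and 28.0% of mitochondrial ribosomal starts. GGGCGG, read by SP1, stood at 49.0% against 35.7%, CACGTG, the E-box read by MYC and MAX, at 12.2% against 7.2%, and TATAAA at 6.1% against 13.6%. These matches describe letters in the window and say nothing about binding in these cells.

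The measurements were 12 arrays with 1 log2 signal per probe set. Arc was at 9.21 to 9.62 on the 6 wildtype arrays and at 7.68 to 8.05 on the 6 knockout arrays, lower on every array labelled knockout. Among the untreated wildtype arrays, the 3 pairwise differences had an SD of 0.10 to 0.11 over 6440 genes with a mean signal above 8, less than any of the 9 other pairs within a group (0.19 to 0.44), and their mean was counted as 1 sample. Over all 53 members the same 3 pairs did not stand apart (0.16 to 0.17, against 0.15 to 0.30). That set includes 18 members with a mean signal below 8, so its SDs are not comparable with those of the 6440 genes. The members above 8 were not read as a separate set. On 4 arrays, replicates 2 and 3 of the LPS groups of both genotypes, the median of 73 small nucleolar RNA genes was 9.55 to 9.85, against 10.4 to 11.0 on the other 8 arrays. Although all animals are labelled male, Y-linked signal was present on 3 arrays (wildtype LPS 1, knockout untreated 2 and knockout LPS 2) and Xist was high, at 11.2 to 11.9, on the other 9. Wildtype LPS array 1 was thus alone among the wildtype arrays in this, and it also stands apart from wildtype LPS arrays 2 and 3 in the member values below; a part of the one in the other was not tested. Dendritic cell markers, 9 of 10 measured, averaged 10.8 to 11.0 on all arrays, and macrophage markers, 9 of 10 measured, averaged 9.77 to 10.6. B cell and T cell markers averaged 6.20 to 6.72.

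On this array 35 members had a mean above 8, between 8.37 and 13.6, and are called bright below. The other 18 lay between 5.69 and 7.83, at percentiles 41.6 to 86.8 of the probe sets that carry no gene, and are called dim. A low value of a dim member describes its probe set and gives no level of the mRNA: for 7 of the 18 a second probe set shared with other genes exists, and for 6 of them it lay above 8. The brightest members varied little between arrays. The SD over 12 arrays was 0.03 for Rpl4, which lines the exit tunnel, and 0.04 for Rpl28. It was also 0.04 for Rps6, the substrate of S6 kinase, and for Rpl21. These genes had the highest means of all members, 13.3 to 13.6, and whether their signal was near a ceiling was not tested. The SD was 0.47 for Rps18 and, among the dim members, 0.33 for Rps15. Rps20, a protein of the head of the small subunit, had the largest SD of all members, 0.56.

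No ribosomal protein gene passed the test for LPS in either genotype in the fit of 10 samples without a replicate block. With limma at an adjusted p threshold of 0.05, 0 of 53 rose and 0 of 53 fell in wildtype cells, where 1.57% of all genes were called, and 0 rose and 0 fell in knockout cells, where 5.91% were called. Over both genotypes the count was again 0, with 6.22% of all genes called. By contrast, all 10 of 10 early inflammatory genes listed as a check of the stimulus (among them Tnf, Il6 and Cxcl10) rose in both genotypes, with a median log2 difference of 3.99 in wildtype and 4.02 in knockout cells. At an unadjusted p under 0.05 no member was higher in wildtype, in knockout or over both genotypes, where 5.8%, 8.26% and 8.36% of all genes were. At that level 0 members were lower in wildtype, 5 in knockout (Rps19, Rps7, Rpl41, Rps25 and Rps27) and 7 over both genotypes (Rps7, Rps19, Rps25, Rps24, Rpl7, Rpl41 and Rps3), where 4.11%, 12% and 9.22% of all genes were lower.

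Most members nevertheless had a small negative LPS difference. It shrank in knockout cells and changed sign in wildtype cells once the 4 arrays of low small nucleolar RNA signal had a term or were left out. The median over the 53 members was -0.09 in wildtype cells (38 of 53 below 0), -0.20 in knockout cells (48 of 53) and -0.15 over both (44 of 53), against -0.01, -0.0037 and -0.01 over all genes. With a term for the 4 arrays 37 of 53 members were above 0 in wildtype cells, and without those arrays 43 of 53 were. In knockout cells the median was -0.03 with the term (32 of 53 below 0) and -0.06 without the arrays (41 of 53). Over both genotypes it was -0.0026 in either fit, with 28 of 53 below 0. These fits must give the same value there, because each then compares replicate 1 of the LPS groups with the untreated arrays. Leaving out 1 array at a time moved the wildtype median between -0.19 and -0.0513. After quantile normalization the medians of the genotypes lay closer together, at -0.16 in wildtype and -0.19 in knockout cells. Bright members had medians of -0.16, -0.23 and -0.18, against 0.06, -0.12 and -0.03 over all 6440 bright genes. Dim members had medians of 0.08, -0.16 and -0.04. The 95% interval of a member's difference had a median half-width of 0.42 log2 units in wildtype, 0.30 in knockout and 0.26 over both genotypes, so differences of the size of these medians were not resolvable gene by gene. A 2-fold difference lay outside the interval for 50, 51 and 51 of the 53 members. When the 12 arrays were counted as 12 samples, 4 members fell over both genotypes, Rps7 (adjusted p = 0.0189, limma), Rps19 (0.028), Rps25 (0.0344) and Rps24 (0.0491), where 7.35% of all genes fell, so the members' share of 7.55% was near the background. None passed within wildtype or knockout cells, where 8.64% and 9.11% of all genes were called. With the replicate number as a fixed block on 12 arrays, 13 members (24.5%) fell over both genotypes, against 9.19% of all genes. In that fit 1 fell in wildtype (Rps18, adjusted p = 0.0307, 4.57% of all genes) and 1 in knockout (Rps19, adjusted p = 0.0253, 6.9% of all genes). With it as a random block, 9 fell over both, against 8.69% of all genes, and 1 in knockout (Rps19, adjusted p = 0.0411), against 6.65%. Same-numbered arrays deviated together in wildtype LPS, knockout untreated and knockout LPS cells, but not with untreated wildtype. With a block on the 10 samples, untreated wildtype as 1 mean, 4 members (7.55%) fell over both genotypes, against 4.95% of all genes. These were Rps18 (adjusted p = 0.0204, limma), Rps20 (0.0350), Rps19 (0.0365) and Rps24 (0.0439). In knockout cells 2 fell in that fit, Rps19 (0.0270) and Rps20 (0.0338), against 6.13% of all genes. In wildtype cells none fell, against 0.821% of all genes. With the block and only the 2 knockout groups in the fit, no member was called. No share of all genes is given for that smaller fit, so its 0 cannot be weighed.

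**Figure D1:**
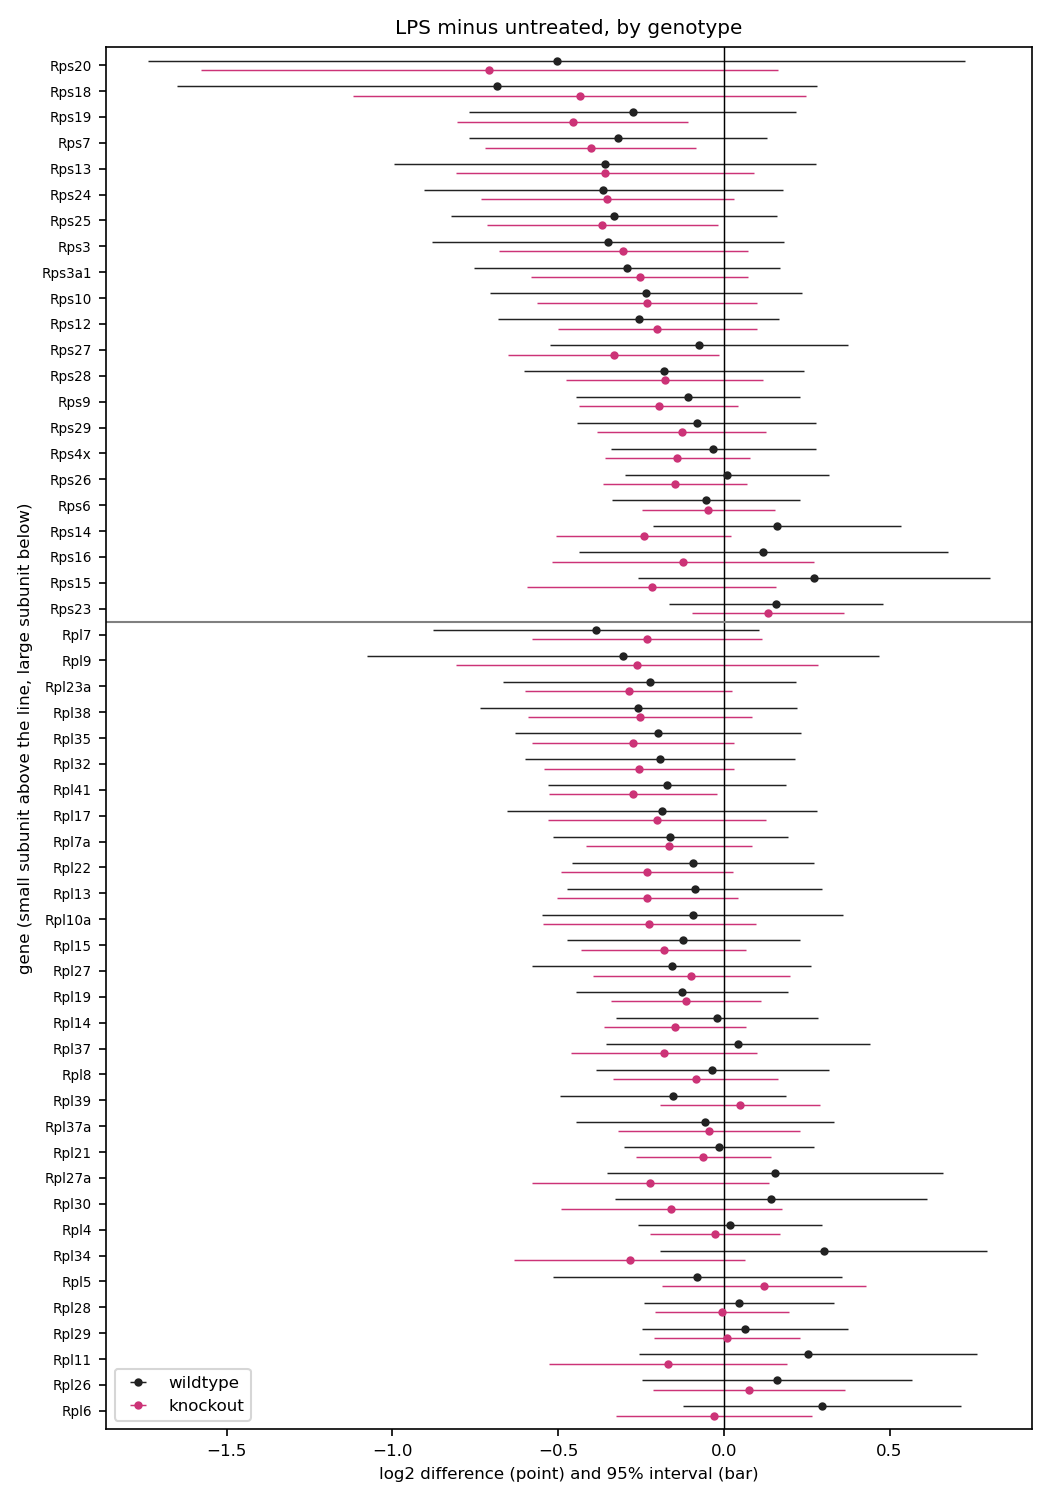
Log2 difference, LPS minus untreated, for each of the 53 members (points) with its 95% interval (bars) in wildtype (black) and knockout cells (pink), small subunit above the line and large subunit below. Most points lie left of 0, with medians of -0.09 in wildtype and -0.20 in knockout, and most intervals cross 0.

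Small subunit genes are described first; the difference between the subunits was not tested. The median over the 22 was -0.21 in wildtype, -0.24 in knockout and -0.22 over both genotypes, with 20 of 22 below 0 over both, and 5 of the 7 members at an unadjusted p under 0.05 over both were among them. Rps7 takes part in making the small subunit and can bind Mdm2. It read 7.64, 7.67 and 7.71 on the untreated wildtype arrays, 7.68, 7.31 and 7.08 after LPS, 7.68, 7.86 and 7.67 on the untreated knockout arrays and 7.32, 7.37 and 7.30 after LPS (replicates 1, 2 and 3 in this order here and below). In knockout cells every LPS array lay below every untreated array, and in wildtype cells the first LPS array lay among the untreated ones. The difference was -0.40 in knockout (1.32-fold lower, SE 0.14, adjusted p = 0.142), -0.32 in wildtype (SE 0.20, adjusted p = 0.747) and -0.36 over both (SE 0.12, adjusted p = 0.142).

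Rps19, the gene most often mutated in Diamond-Blackfan anaemia and needed to mature the small subunit RNA, was at 11.91, 11.91 and 11.90 on untreated wildtype arrays and 11.91, 11.52 and 11.47 after LPS. In knockout cells its values were 12.09, 11.90 and 11.87 untreated and 11.75, 11.24 and 11.50 after LPS. Again the knockout groups did not overlap and the wildtype groups did, through replicate 1. Its difference was -0.46 in knockout (1.37-fold lower, SE 0.16, adjusted p = 0.130), the smallest p of any member there, and -0.27 in wildtype (SE 0.22, adjusted p = 0.860).

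Rps25, which sits in the head of the small subunit and is needed for translation from some viral internal entry sites, read 9.51, 9.56 and 9.56 untreated and 9.59, 9.04 and 8.99 after LPS in wildtype cells. Its knockout values were 9.50, 9.57 and 9.41 untreated and 9.23, 9.17 and 8.98 after LPS. The knockout groups did not overlap, whereas the first wildtype LPS array was the highest of all 12. The differences were -0.33 (SE 0.22, adjusted p = 0.771) in wildtype and -0.37 (SE 0.16, adjusted p = 0.223) in knockout. Rps24, another gene mutated in Diamond-Blackfan anaemia, was at 11.81, 11.75 and 11.74 untreated and 11.73, 11.22 and 11.27 after LPS in wildtype cells, and at 11.95, 11.81 and 11.68 untreated and 11.78, 11.22 and 11.38 after LPS in knockout cells. It was 1 of 4 members whose wildtype LPS arrays all lay below the untreated ones, narrowly for LPS array 1, while its knockout groups overlapped. Over both genotypes its difference was -0.36 (SE 0.15, adjusted p = 0.242).

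The widest spreads belonged to Rps18 and Rps20, both of the head of the small subunit. Rps18 was at 9.96, 9.92 and 9.81 untreated and 9.88, 9.02 and 8.72 after LPS in wildtype cells, and at 9.95, 9.66 and 9.36 untreated and 9.80, 8.87 and 9.0 after LPS in knockout cells. Rps20, a dim member, ran from 6.31 on knockout LPS array 3 to 8.12 on knockout untreated array 1, with 7.90, 6.59 and 6.73 on the wildtype LPS arrays. For both genes replicate 1 of each LPS group lay level with untreated arrays and the other LPS arrays lay below every untreated array. The differences over both genotypes, -0.56 for Rps18 (SE 0.27, adjusted p = 0.315) and -0.61 for Rps20 (1.52-fold lower, SE 0.34, adjusted p = 0.420), had intervals reaching 0.03 and 0.15. Rps27, a zinc finger protein of the small subunit, had a difference of -0.33 in knockout (SE 0.14, adjusted p = 0.226) and -0.08 in wildtype (SE 0.20, adjusted p = 0.986). At the other end, Rps6 spanned only 0.13 log2 units over the 12 arrays, with a difference of -0.05 over both genotypes and an interval of -0.22 to 0.12. Rps23, a protein of the decoding centre, was the only small subunit gene whose LPS arrays all lay above the untreated ones in knockout cells (0.13, SE 0.10, adjusted p = 0.522).

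Large subunit genes had medians of -0.09 in wildtype, -0.17 in knockout and -0.08 over both genotypes, with 24 of 31 below 0 over both. Rpl7 had the smallest p of the 31 in wildtype. It read 11.80, 11.86 and 11.87 untreated and 11.84, 11.18 and 11.36 after LPS in wildtype cells, and 11.94, 11.96 and 11.80 untreated and 11.80, 11.63 and 11.59 after LPS in knockout cells. Its wildtype LPS arrays 2 and 3 were the lowest of the 12. The difference was -0.39 in wildtype (SE 0.22, adjusted p = 0.685) and -0.31 over both genotypes (SE 0.14, adjusted p = 0.269). Rpl41, which encodes a very short basic peptide, was at 13.35, 13.36 and 13.37 untreated and 13.39, 13.05 and 13.13 after LPS in wildtype cells, and at 13.42, 13.35 and 13.26 untreated and 13.15, 13.03 and 13.02 after LPS in knockout cells. The knockout groups did not overlap, with a difference of -0.27 (SE 0.11, adjusted p = 0.210). Of the 11 further bright probe sets with distinct values that 8 members have, 10 had the same sign over both genotypes as the probe set used, among them 3 of Rpl41 with differences of -0.38 to -0.25. The exception belonged to Rpl29.

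The other large subunit members gave no call in either direction. Rpl6 had a positive difference in wildtype, 0.30 (SE 0.19, adjusted p = 0.750). Its arrays read 7.0, 6.88 and 6.87 untreated and 7.05, 7.06 and 7.53 after LPS. It was the only member whose wildtype LPS arrays all lay above the untreated ones, and LPS array 3 stood clear above the other 11 arrays. Rpl39, a short protein lining the exit tunnel, Rpl5 and Rpl11, which together carry the smallest ribosomal RNA into the large subunit, and Rpl10a, part of the mobile L1 stalk, had differences over both genotypes of -0.05, 0.02, 0.04 and -0.16, and each interval crossed 0. Rpl4, Rpl28 and Rpl21 were within 0.04 of 0 over both genotypes, and their intervals lay between -0.21 and 0.20. Dimmer probe sets read differently over both genotypes: -0.46 for Rpl4 (mean 7.89) and 0.28 for Rpl21 (mean 7.96). Those of members described as lower after LPS differed too. They gave 0.15 and 0.17 for Rps18 (means 6.74 and 6.18), 0.07 for Rps19 (6.90) and 0.04 for Rpl7 (6.02). For Rps24 the probe set of mean 8.86 gave -0.23 and that of mean 7.72 gave 0.02. The second probe set of Rps20 (mean 6.12) gave -0.15, and the dimmest of Rpl41 (mean 7.11) gave -0.02.

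**Figure D2:**
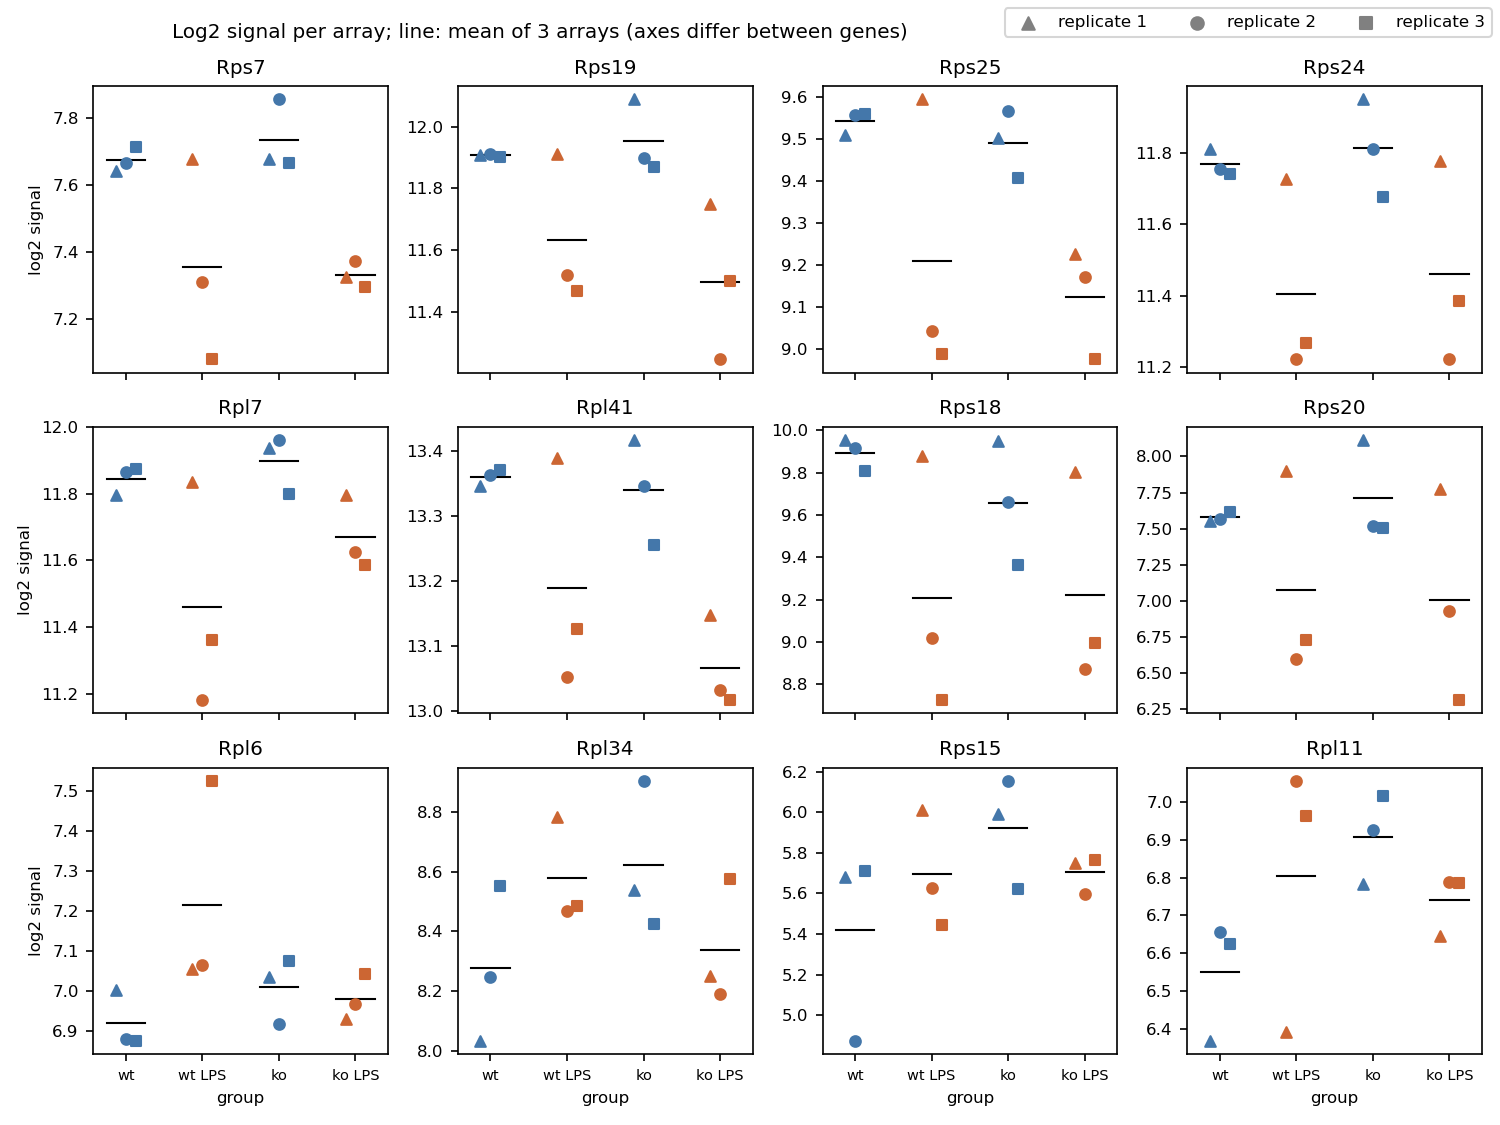
Log2 signal per array for 12 members, by group (wt, wildtype; ko, knockout; blue, untreated; orange, LPS); symbols give the replicate number and lines the mean of 3 arrays, and the axes differ between genes. In Rps7, Rps19, Rps25, Rps24, Rpl7 and Rps18 the wildtype LPS array of replicate 1 (triangle) lies with or close to the untreated arrays while replicates 2 and 3 lie below them.

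Groups that did not overlap were counted over all members. In wildtype cells 4 members (Rps12, Rps24, Rps3a1 and Rps6) had all LPS arrays below all untreated arrays and 1 (Rpl6) had them above, against 13.9% and 16.2% of all genes, so the share of members was below the background in both directions. In knockout cells 16 of 53 members (30.2%) lay below, against 14.8% of all genes, and 1 (Rps23) lay above, against 10.3%. The 16 comprised 7 small subunit genes (Rps4x, Rps7, Rps9, Rps14, Rps19, Rps25 and Rps26) and 9 large subunit genes (Rpl7, Rpl7a, Rpl10a, Rpl14, Rpl19, Rpl22, Rpl27a, Rpl32 and Rpl41).

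The LPS arrays of a group differed from each other. Against the mean of the untreated arrays of its genotype, wildtype LPS array 1 had a median member difference of 0.08, with 5 of 53 members below all untreated arrays, while array 2 had -0.18 with 35 and array 3 had -0.22 with 39. In knockout cells the values were -0.06 with 22 members for array 1, -0.25 with 42 for array 2 and -0.22 with 38 for array 3. Among all genes, 32.8%, 33.2% and 34.7% lay below all untreated arrays on wildtype LPS arrays 1, 2 and 3, and 34.7%, 36.5% and 32.8% on the knockout ones. The 4 arrays with the lower member signal are those with low small nucleolar RNA signal. On these 4, members had a median deviation from their own means of -0.18 to -0.12, with 40 to 48 of 53 below their mean. On the other 8, untreated and LPS alike, the median deviation was 0.03 to 0.14 and 4 to 23 members were below their mean.

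**Figure D3:**
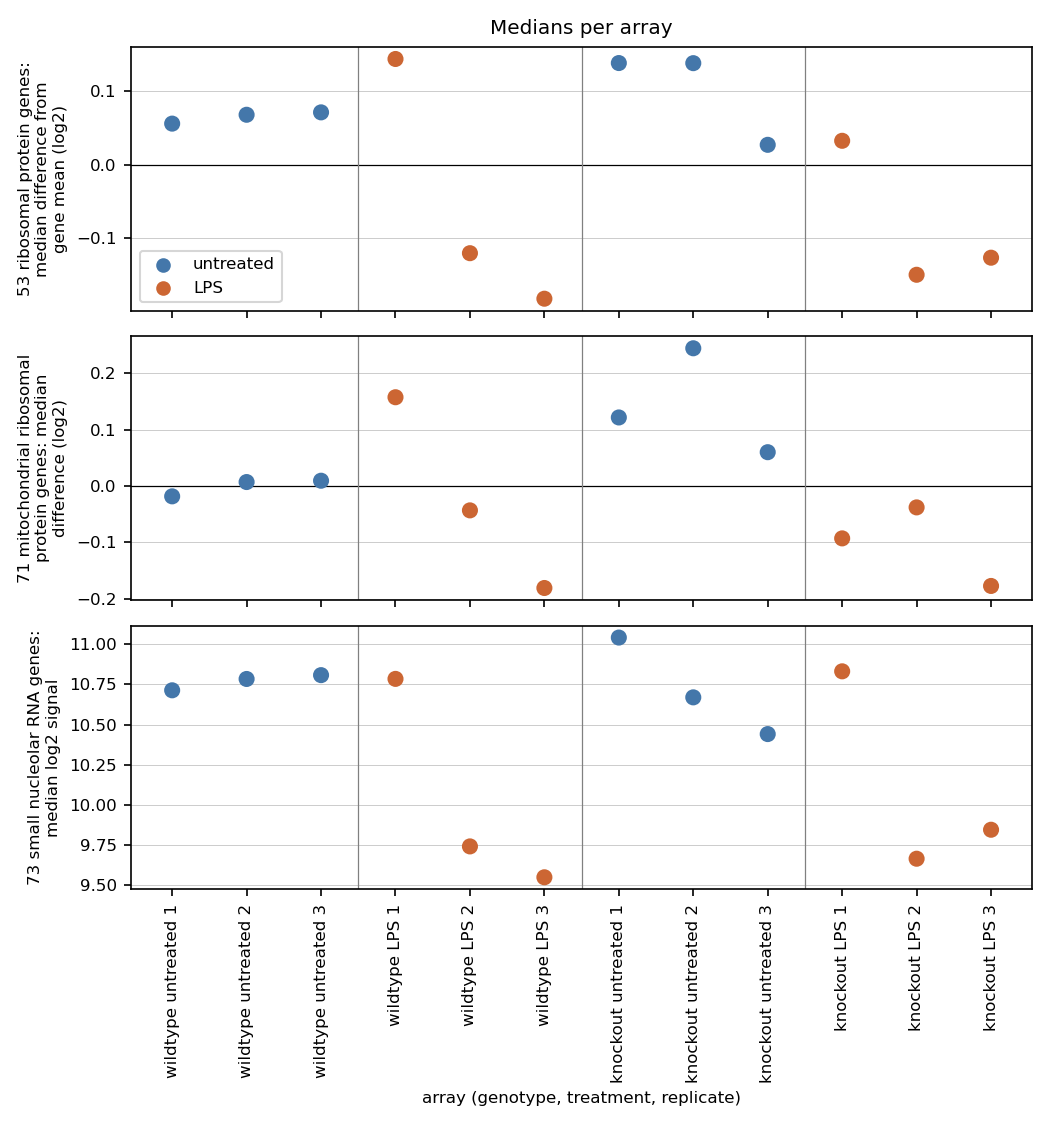
Per array, the median difference from the gene mean (log2) of the 53 ribosomal protein genes (top) and of 71 mitochondrial ribosomal protein genes (middle), and the median log2 signal of 73 small nucleolar RNA genes (bottom); blue, untreated, orange, LPS. The 4 LPS arrays of replicates 2 and 3 lie lowest in the top and bottom panels, at -0.18 to -0.12 and 9.55 to 9.85.

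For 25 of the 53 members (47.2%) all 4 of these arrays lay below all 8 others, against 2.99% of all genes, and for no member did they all lie above. This held for 22 of 35 bright members (62.9%, against 7.7% of all bright genes), 3 of 18 dim members, 12 of 22 small subunit genes and 13 of 31 large subunit genes. It held for 10 of 71 mitochondrial ribosomal protein genes (14.1%). Without the 4 arrays, the median member difference was 0.08 in wildtype and -0.06 in knockout cells, each then resting on 1 LPS array, and with a term for these arrays it was 0.03 and -0.03. Because the 4 arrays all received LPS, LPS and whatever else these arrays share cannot be fully told apart. Neutrophil markers, 10 of 10 measured, also differed with LPS: their mean was 8.30 to 8.76 on untreated arrays, 7.37 to 8.17 on the 4 arrays and 7.19 to 7.54 on the other LPS arrays, and 5 of the 10 fell over both genotypes. Monocyte markers, 6 of 6 measured, averaged 9.75 to 10.1 untreated and 8.38 to 9.20 after LPS, and 3 of the 6 fell. Over both genotypes 6.22% of all genes were called in either direction and 3.94% were called higher. Among macrophage markers Cd14 rose (1.63) and Lyz2 fell (-0.75), and the dendritic cell marker Zbtb46 rose (0.78), so calls were not limited to neutrophil and monocyte markers. The part of these cell markers in the ribosomal protein values was not tested.

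**Figure D4:**
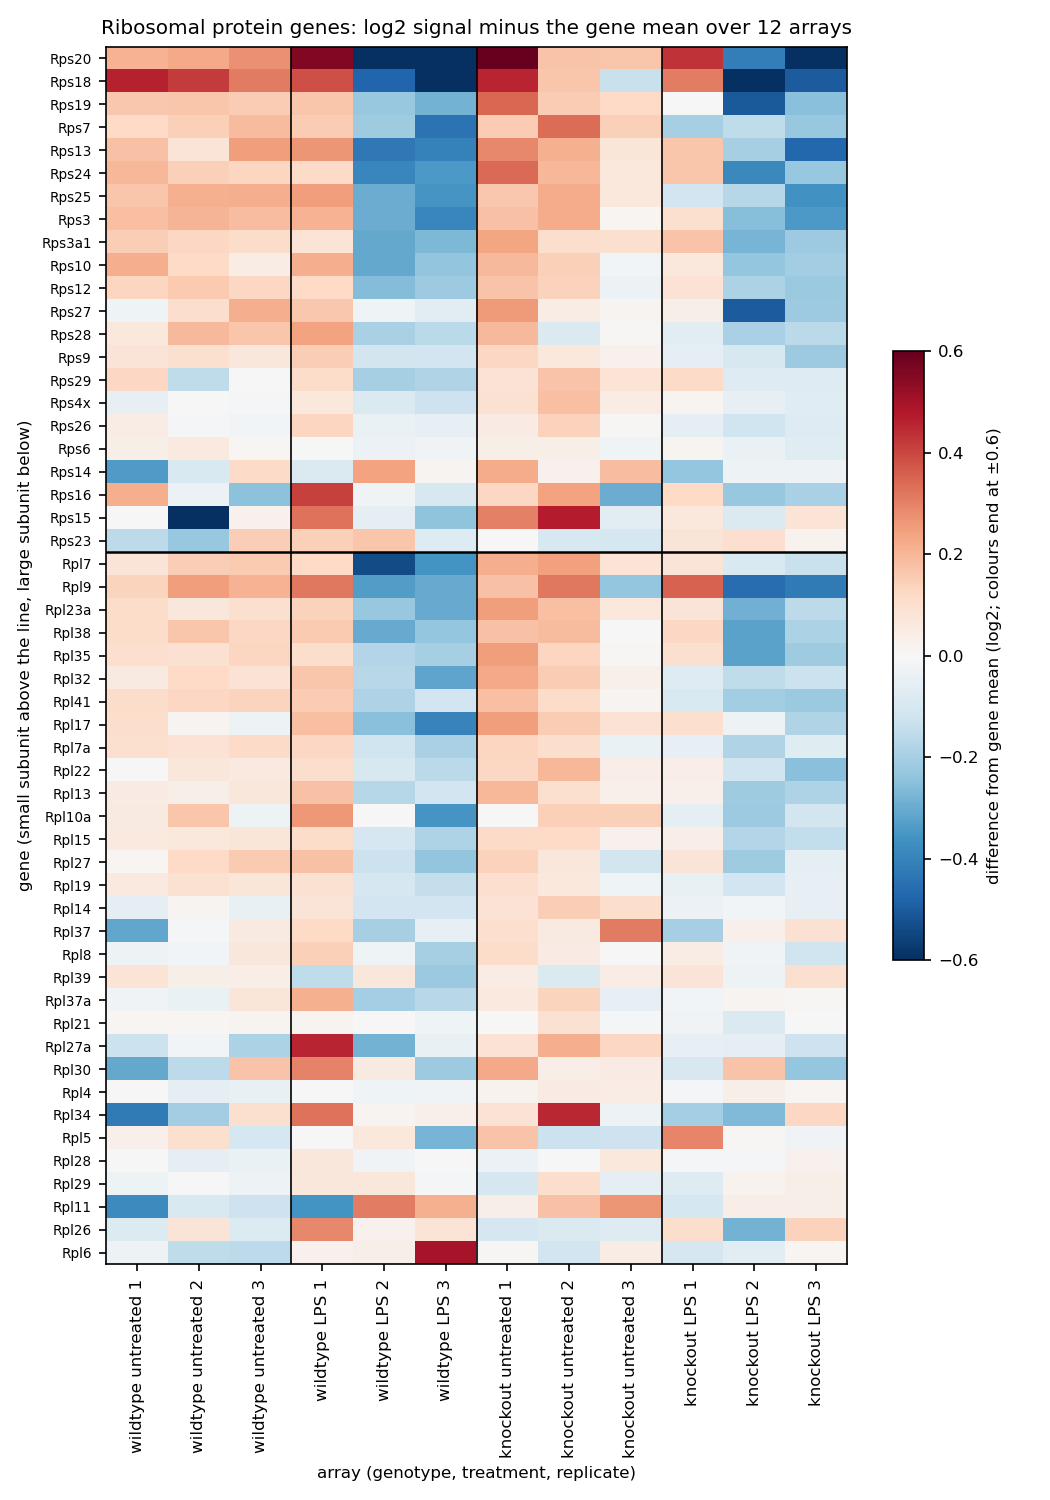
Log2 signal of each of the 53 members (rows, small subunit above the line) on each of the 12 arrays (columns), as the difference from the gene's mean over all arrays; red is higher and blue lower, and colours end at 0.6 either side of 0. Blue columns are LPS arrays 2 and 3 of both genotypes, where 40 to 48 of the 53 members lay below their mean.

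Some small nucleolar RNAs are cut from introns of ribosomal protein genes. By RefSeq gene positions, 13 members contain such a gene (Rpl4, Rpl5, Rpl13, Rpl17, Rpl23a, Rpl27a, Rpl32, Rpl37, Rpl39, Rps3, Rps3a1, Rps12 and Rps13). Their median LPS difference over both genotypes was -0.19, with 12 of 13 below 0, against -0.12 for the other 40, with 32 below 0. The other 40 had no gene with a Snora or Snord symbol inside them by those positions, so any host that the annotation misses would count there. In wildtype cells the medians were -0.19 and -0.09, and in knockout cells -0.22 and -0.18.

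Ribosomal protein signals outside the rule were also read. Of the structural proteins named otherwise, 5 of 6 were measured (Rplp0, Rplp1 and Rplp2 of the stalk that recruits elongation factors, Rpsa and Fau), and none passed the test in any comparison. Their median over both genotypes was -0.16, all 5 below 0, with -0.23 for Fau (SE 0.10, adjusted p = 0.240). A further 56 probe sets carry several genes including at least 1 ribosomal protein symbol, and stood outside the test of single genes. They name 31 such symbols, 12 of which are no members. Their medians were -0.17 in wildtype, -0.22 in knockout and -0.20 over both genotypes, and none was called.

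Mitochondrial ribosomal protein genes, which build the ribosome that translates the genes of the mitochondrial genome, were the nearest comparison. Of 71 measured, 0 rose and 0 fell in wildtype cells, with a median of -0.03, and 1 fell in knockout cells, with a median of -0.26 and 67 of 71 below 0. The gene that fell was Mrps31, at -0.54 (SE 0.09, adjusted p = 0.00722), where 5.91% of all genes were called in either direction. Over both genotypes the mitochondrial median was -0.153 with 62 of 71 below 0, beside -0.152 with 44 of 53 for the cytosolic genes, and Mrps31 alone fell (-0.41, SE 0.08, adjusted p = 0.0108). Knockout LPS array 1, which lay near the untreated arrays for the cytosolic genes with a median of -0.06, had a median of -0.24 for the mitochondrial genes. The difference between the lists was not tested.

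Among genes that make and control ribosomes, those that passed the test after LPS with 10 samples and no block rose. Of 34 listed ribosome biogenesis genes 32 were measured. Over both genotypes 4 rose, where 3.94% of all genes rose, and none fell: Ltv1, an assembly and export factor of the small subunit (1.00, SE 0.13, adjusted p = 0.000872), Sbds, which frees the large subunit for joining (0.83, SE 0.10, adjusted p = 0.000445), Nop58, a core protein of box C/D small nucleolar particles (0.80, SE 0.20, adjusted p = 0.0361), and Ddx21, a nucleolar helicase (0.67, SE 0.14, adjusted p = 0.0144). With 12 arrays as 12 samples 10 of the list rose and 2 fell, where 7.1% of all genes rose and 7.35% fell. Ltv1 and Sbds passed in both genotypes, at 1.07 and 0.83 in wildtype and 0.94 and 0.84 in knockout cells. Of 15 regulators of ribosomal protein production 14 were measured, and Mdm2, the p53 ligase that free ribosomal proteins can bind, rose by 1.01 in wildtype and 0.75 in knockout cells (adjusted p = 0.0269 and 0.00834). The other 13, Myc, Mtor and Larp1 among those listed, did not pass in either genotype. Of all genes 1.57% were called in wildtype and 5.91% in knockout cells.

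Translation factors and other genes whose mRNAs are known for the same kind of tract were listed too, and 18 of 21 were measured. RefSeq promoter entries were found for 12 of the 18, and 8 of their 13 starts (61.5%) held a pyrimidine run as defined above. Their median LPS difference was -0.02 in wildtype, -0.12 in knockout and -0.08 over both genotypes. Pabpc1, the poly(A) binding protein, rose over both genotypes by 0.67 (SE 0.15, adjusted p = 0.0211), and Eif4a2, a helicase of translation initiation, fell in knockout cells, by 0.41 on the log2 scale (SE 0.09, adjusted p = 0.0281). The other members of this list did not pass. Beside these calls, 6.22% of all genes were called over both genotypes and 5.91% in knockout cells.

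Genotype was compared first without LPS, to ask whether loss of Arc/Arg3.1 goes with another level of ribosomal protein mRNA. No member passed: 0 of 53 rose and 0 fell with limma, where 0.00451% of all genes were called, and none reached an unadjusted p under 0.05, where 0.748% of all genes were higher and 3.3% lower. With 12 arrays as 12 samples the count was also 0, with 0.437% of all genes called. The median difference, knockout minus wildtype, was 0.04, against 0.02 over all genes, and turned to -0.01 when the arrays were quantile normalized. A 2-fold difference lay outside the 95% interval for 50 of 53 members, with a median half-width of 0.42. All knockout arrays lay above all wildtype arrays for 5 members (Rps4x, Rpl4, Rpl11, Rpl14 and Rpl27a), against 17.7% of all genes, and below them for none, against 11.6%.

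The members with the smallest p in untreated cells were mostly dim. Rps15, a protein of the decoding side of the small subunit, read 5.68, 4.87 and 5.71 on wildtype and 5.99, 6.16 and 5.62 on knockout arrays. The groups overlapped, and the difference of 0.50 (SE 0.24, adjusted p = 0.970) rested in good part on wildtype array 2: without that array it was 0.23. Rpl11, the Mdm2-binding partner of Rpl5, read 6.37, 6.66 and 6.63 on wildtype and 6.78, 6.92 and 7.01 on knockout arrays. These groups did not overlap, with a difference of 0.36 (SE 0.23, adjusted p = 0.970). Rpl34, the bright gene of the 5, read 8.03, 8.25 and 8.55 on wildtype and 8.54, 8.90 and 8.42 on knockout arrays, overlapping, with a difference of 0.35 (SE 0.22). Rps14, of the platform of the small subunit, and Rpl37, a zinc finger protein, had differences of 0.25 (SE 0.17) and 0.24 (SE 0.18).

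After LPS the genotypes again gave 0 calls among members, with 0.00902% of all genes called, and no member at an unadjusted p under 0.05, where 1.82% of all genes were higher and 2.13% lower. The median was -0.0184, beside -0.0244 over all genes. Setting the arrays to the same median moved both alike, to 0.0146 and 0.00864, and leaving out 1 array at a time moved the members' median between -0.09 and 0.07. For all 53 members a 2-fold difference lay outside the interval, and the median half-width was 0.30. Rpl6 and Rps26, which lies where the mRNA leaves the small subunit, had all knockout arrays below all wildtype arrays, 2 of 53 against 4.96% of all genes, and no member had them above, against 2.81%. Rpl6 was at 7.05, 7.06 and 7.53 on wildtype and 6.93, 6.97 and 7.04 on knockout arrays. Its difference of -0.24 (SE 0.13, adjusted p = 0.999) was -0.08 without wildtype array 3, the high one. Rps27 (-0.25, SE 0.14), Rpl34 (-0.24, SE 0.16), Rpl7 (0.21, SE 0.16) and Rpl39 (0.15, SE 0.11) completed the 5 members of smallest p. Leaving out 1 array at a time changed the size of these differences but not their sign. The ranges were -0.38 to -0.11 for Rps27, -0.36 to -0.14 for Rpl34, 0.07 to 0.40 for Rpl7 and 0.09 to 0.23 for Rpl39.

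Over both treatments no member was called (0.0135% of all genes), and no member reached an unadjusted p under 0.05 (all genes, 0.807% higher and 2.49% lower). The median was 0.00186 and a 2-fold difference lay outside the interval for all 53, with a median half-width of 0.26. Rps15 had the largest difference, 0.26 (SE 0.15), which ranged from 0.12 to 0.34 when 1 array was left out. The sign of the median was negative, -0.03, after quantile normalization.

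**Figure D5:**
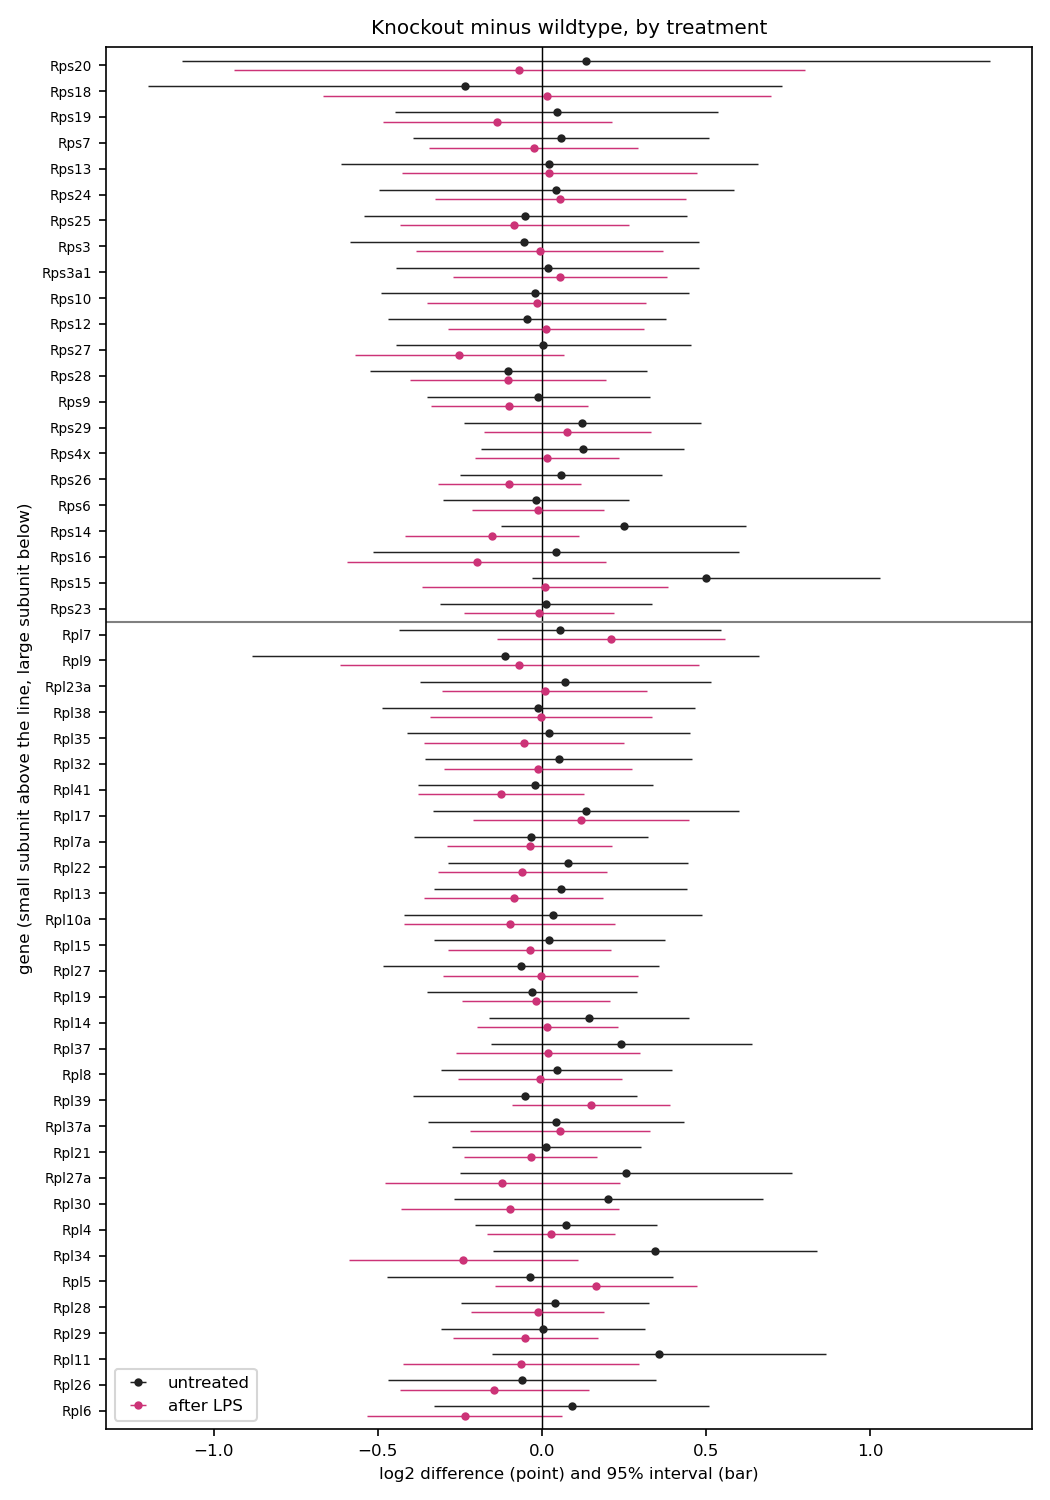
Log2 difference, knockout minus wildtype, for each of the 53 members (points) with its 95% interval (bars) in untreated cells (black) and after LPS (pink), small subunit above the line and large subunit below. Points scatter around 0, with medians of 0.04 and -0.02, and every interval crosses 0.

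The interaction asks whether LPS had another effect in knockout than in wildtype cells. No member was called, as was no gene at all (0%), and none reached an unadjusted p under 0.05 (all genes, 3.45% higher and 0.978% lower). With 12 samples 0.248% of all genes and no member were called. The median was -0.05, against -0.06 over all genes, and the intervals were wide, with a median half-width of 0.52. Rpl34 had the smallest p (interaction -0.58, SE 0.27, adjusted p = 0.948 in limma), with 8.78, 8.47 and 8.48 on wildtype LPS arrays and 8.25, 8.19 and 8.58 on knockout LPS arrays beside the untreated values above. Its LPS difference was 0.30 in wildtype and -0.28 in knockout cells, and neither passed. Rps15 (-0.49), Rpl11 (-0.42), Rps14 (-0.40) and Rpl6 (-0.33) followed, and 4 of these 5 genes are dim. Mitochondrial ribosomal protein genes had an interaction median of -0.24 and all bright genes one of -0.17, with none called.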

How the data were processed

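Total RNA was labelled with the Affymetrix WT PLUS kit and hybridised to 12 arrays, per the labels' protocols. The deposited table holds log2 signals per probe set, already normalized by the authors, by a method that the texts used do not state. limma, with no version, is the sole tool in the submitters' processing notes. Of 34390 probe sets, 23521 carried 1 gene symbol in the platform annotation, 1814 several and 9055 none. Of several probe sets with the same symbol, the one with the highest mean over 12 arrays was used.

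limma 3.58.1 (R 4.3.3) fitted a mean for each group. For 7 contrasts, moderated two-sided tests (eBayes) were adjusted by Benjamini-Hochberg over 22180 genes, with a threshold of 0.05. The 3 untreated wildtype arrays were averaged to 1 sample, leaving 10 samples and 6 residual degrees of freedom; that sample is assumed to vary like the others. Differences are on the log2 signal scale, and fold values are these differences turned back into ratios of signal. Intervals are 95% intervals from limma. Precision is limited by how many arrays there are. The fit was tested on simulated data with independent noise and differences added to the knockout LPS group only. Only the contrast of LPS in knockout was read there, and shifts shared by arrays were not simulated.

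The members, the gene lists, the array set of low small nucleolar RNA signal (median under 10) and the 27 alternatives were chosen with earlier results of these data known; 25 were planned and 2 were added after the replicate numbers were checked. Named members were all called ones or, where under 3 were called, the 5 of smallest p per contrast, plus the one of largest SD; of each list, up to 4 called genes or otherwise the 2 of smallest p. Further members were named after their values were seen. Same-numbered arrays deviated together for knockout untreated and knockout LPS (r = 0.38, 0.30 and 0.20 over 22180 genes) for wildtype LPS and knockout LPS (0.34, 0.36 and 0.23) and for wildtype LPS and knockout untreated (0.14, 0.20 and 0.18), and not for untreated wildtype against wildtype LPS (-0.03, 0.01 and -0.02) or against knockout untreated (-0.01, -0.05 and -0.02) or knockout LPS (0.09, 0.11 and 0.01). The pairing was read from the data, not from the labels. Promoter sequences, gene positions and nested genes came from RefSeq tables of GRCm38.p6.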

Additional observations from a re-analysis of the deposited data

How the results depend on the processing

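In the 4 comparisons of genotype and interaction, no member was called under any of the alternatives run. Without a term or exclusion for the 4 arrays of low small nucleolar RNA signal, the LPS medians kept their negative sign. Quantile normalization gave -0.16 in wildtype, -0.19 in knockout and -0.16 over both genotypes, in place of -0.09, -0.20 and -0.15. Over both genotypes the count of called members moved from 0 to 4 with 12 arrays as 12 samples, to 13 with the replicate number as a fixed block and to 9 as a random block. The fixed block gave 1 call in wildtype and 1 in knockout, and the random block gave 1 in knockout. A block on the 10 samples gave 4 calls over both genotypes, 2 in knockout and 0 in wildtype. A block with only the 2 groups compared gave 0 for LPS in knockout and for genotype after LPS, with no share of all genes given. It was not run for LPS over both genotypes. With a term for the 4 arrays the LPS medians were 0.0339 in wildtype, -0.0305 in knockout and -0.0026 over both. Without the arrays they were 0.0803, -0.0644 and -0.0026, and the value over both is the same by design. Without them Rps7 (0.0032) and Rps25 (0.0530) turned positive for LPS in wildtype, Rpl7 was -0.0405 for genotype after LPS and Rpl37 was -0.0380 for genotype over both treatments; the cause was not tested.

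Leaving out 1 array at a time gave LPS medians of -0.19 to -0.0513 in wildtype, -0.24 to -0.17 in knockout and -0.19 to -0.10 over both. The count over both genotypes was 0 to 3. The 3 (Rps7, Rps25 and Rpl7) were called without wildtype LPS array 1, and that omission gave the -0.19 in wildtype. The share of all genes called under that omission is not given, so the count cannot be set against a background. The adjusted p of Rps19 for LPS in knockout ranged from 0.0724 to 0.313 and that of Rps7 over both genotypes from 0.0267 to 0.251.

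With 3 arrays a group and untreated wildtype counted once, a difference under about 0.26 log2 units over both genotypes cannot be told from 0 for the median member. The 18 dim members lie among probe sets without a gene, so a difference in them may be understated. Whether differences in the brightest members were understated was not tested. Normalization before deposit is unknown. After quantile normalization the genotype median was -0.01 in untreated cells and -0.03 over both treatments, in place of 0.04 and 0.00186, and stayed at -0.02 after LPS.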

Other observations

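RNA polymerase I, which transcribes the large ribosomal RNA precursor, was read through 14 of 14 listed subunits and factors. None was called for LPS or genotype. Their LPS medians were 0.05 in wildtype and -0.16 in knockout cells, and the smallest p values over both genotypes belonged to Rrn3, the growth-regulated initiation factor (0.24, SE 0.13, adjusted p = 0.398, limma), and Polr1d (-0.22, SE 0.12, adjusted p = 0.394). Host genes of small nucleolar RNAs without a protein product, 7 of 9 measured, pointed both ways after LPS over both genotypes: Snhg5 was at -0.40 (SE 0.12, adjusted p = 0.103) and Snhg3 at 0.30 (SE 0.09, adjusted p = 0.0723), and none was called.

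Paralogues of ribosomal proteins outside the rule, 7 of 8 measured, had an LPS median of -0.01 over both genotypes and no calls. Rps27l, a p53 target, was at -0.30 (SE 0.17, adjusted p = 0.410). In the comparison of genotypes over both treatments all 7 were below 0, with a median of -0.10, against -0.0028 over all genes. None was called, and the lowest p was that of Rps4l (-0.15, SE 0.10, adjusted p = 0.9997, limma). Mean signals were low for Rps4l (6.80), Rpl10l (5.03) and Rpl22l1 (5.46), and higher for Rps27l (9.45).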
